A study of Mus musculus with 56 samples.

Results

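The data described here are the liver transcriptomes of mice given a glucokinase activator (GKA) set against those of mice without it, pooled over the genotypes of the study. The comparison took 55 of the 56 mice of the series, 28 with GKA and 27 without, by the treatment given in their labels. All were males fed for 20 weeks with food rich in fat (45%) and with sugar (glucose at 10% and fructose at 5%), the HFHSD of the study, and in the treated mice the GKA was mixed into this diet at 3 mg/kg. The labels call the compound only GKA or drug, and give no age, litter, harvest date or time of day. The mice carried a germline knock-in on a B6N background of the gene Gckr, which encodes glucokinase regulatory protein (GKRP), so that residue 446 was proline (P) or leucine (L). The variant was therefore present in every cell, and no group had a control diet. Without GKA there were 9 PP (Gckr-446P), 8 PL (Gckr-446P/L) and 10 LL (Gckr-446L) livers, and with GKA there were 10 PP, 8 PL and 10 LL livers. PP mouse 7, without GKA, was not used.

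Glucokinase (GK) phosphorylates glucose in hepatocytes and so sets the entry of glucose into glycolysis, glycogen and fat synthesis. GKRP binds GK and holds it in the nucleus at low glucose, and releases it when glucose or fructose arrives after a meal. A GKA binds GK at a site away from the active site and raises its activity at a given glucose concentration. Glucose 6-phosphate and other metabolites formed after GK induce genes such as Pklr, G6pc1 and Txnip through the transcription factor ChREBP (gene Mlxipl).

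The codon that the genotypes differ at is shown to place the variant. It lies in exon 15 of Gckr-202, the transcript that codes for 623 residues, on the plus strand of chromosome 5 (GRCm39). The reference sequence at chr5:31466260-31466277 is the end of that exon, with the proline codon in capitals.
Gckr-202, codon 446: gtggggcagtccttgCCA

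The reads of each mouse were summed per gene and are given as normalised read counts, in counts per mega reads (CPM). Total reads were between 5.19 M and 8.09 M per mouse. They were 6.77 ± 0.705 M without GKA (SD, n = 27) and 6.53 ± 0.687 M with GKA (n = 28). Of 17 library measures compared by a permutation test within genotype (two-sided, 100000 resamples), 0 differed after adjustment over the 17. These included reads, genes detected, the share of reads on the 50 most abundant genes, the share on mitochondrial genes, a clock component and the summed markers of 12 cell types or tissues. The hepatocyte markers made up 103200 ± 14110 CPM without GKA and 107400 ± 14670 CPM with GKA, and all 10 were read (median log2 fold change with GKA -0.001). Adipoq and Lep of adipose tissue, Ckm of muscle and 9 of the 12 pancreas markers had no read in any of the 55 livers.

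To determine whether GKA altered the liver transcriptome across genotypes, one GKA effect was estimated with genotype as a covariate. Of 11174 genes tested, 0 had an edgeR adjusted p below 0.05 (0.0% of genes), and there were therefore 0 differentially expressed genes (DEGs, which also need a fold of 1.3 or more, or of 0.7 or less). The smallest edgeR adjusted p was 0.201, for the long non-coding RNA Gm4316. At an unadjusted p below 0.05 there were 583 genes (5.22%), where 559 are expected by chance, with 287 higher (2.57%) and 296 lower (2.65%) with GKA. At an unadjusted p below 0.01 there were 133 genes, where 112 are expected. The same fit gave 441 genes past the adjusted threshold for LL against PP (3.95%) and 223 for PL against PP (2.0%). The GKA and genotype estimates came from the same livers at the same depth.

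**Figure D1:**
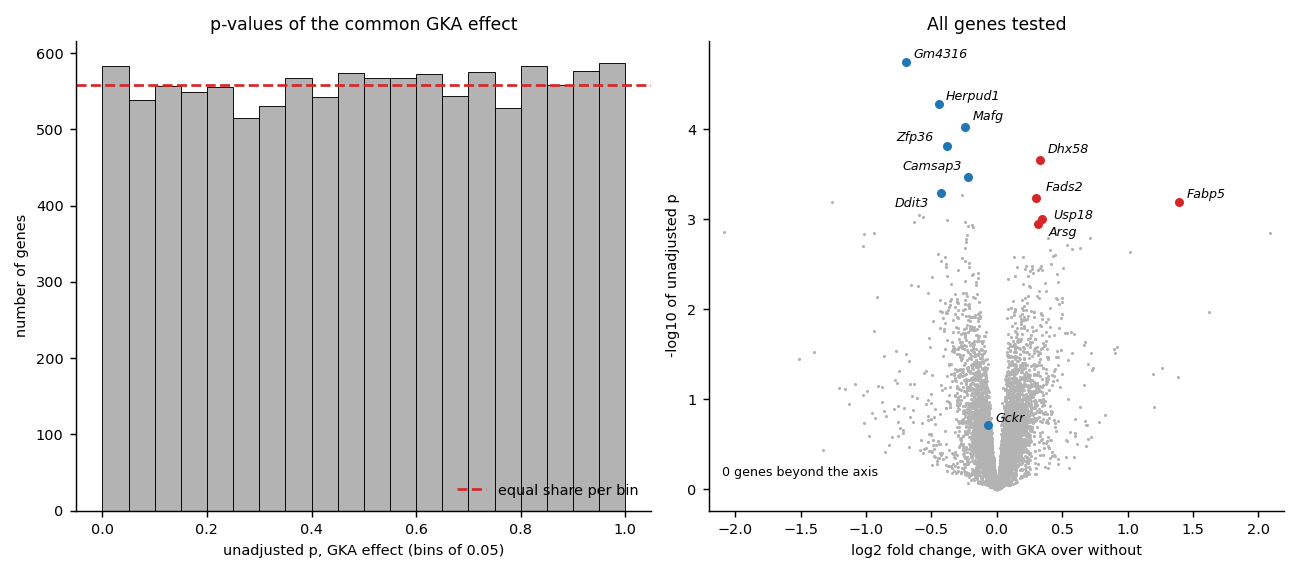
Left, number of genes (y axis) by unadjusted p of the GKA effect (x axis), in bins of 0.05, with a dashed line at an equal share per bin. Right, −log10 of the unadjusted p (y axis) by log2 fold change with GKA over without (x axis), 1 point per gene, with named genes in red (higher) or blue (lower). The first bin holds 583 of the 11174 genes, close to the dashed line, and Gm4316 has the smallest p.

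The size of change that these livers allow was given by the intervals of the fold changes. The median absolute log2 fold change over all genes was 0.06 and the median standard error (SE) 0.08. The 95% interval lay within a 1.3-fold change in either direction for 77.7% of genes and within a 2-fold change for 97.3%. With genes split by mean count into 4 sets of equal size, the share within 1.3-fold was 43.0%, 84.8%, 92.6% and 90.2% from the lowest to the highest counts. The estimate was 1.3-fold or more for 123 genes and 0.7-fold or less for 74, and 81 of them had an unadjusted p below 0.05.

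The binding partner of the enzyme was examined first. Gckr (chromosome 5, 31454787 to 31484658) ranged from 129.7 to 231 CPM without GKA (median 162) and from 116 to 198 CPM with GKA (median 165). The ranges of the mice with and without GKA overlapped. The estimate on the log2 scale was -0.07 (SE 0.05, 95% interval -0.17 to 0.04), which did not pass the test (edgeR adjusted p 0.997), and the interval lay within a 1.3-fold change, while with an offset for the length of each gene's transcripts (transcript length offset) the estimate was -0.39, outside that range. In all, 19 of 28 mice with GKA were below the mean log2 CPM of their own genotype without it, a scale used for each such count of mice.

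Genes that respond to glucose metabolism were then compared. Of 14 genes induced by GK overexpression in hepatocytes, 0 passed the adjusted test and 0 had an unadjusted p below 0.05. Their median log2 fold change was 0.12, with 11 of 14 positive, where the median over all genes was 0.001 with 50.6% positive. Pklr, liver pyruvate kinase, had 589 ± 154 CPM without GKA (SD, n = 27) and 639.7 ± 149 CPM with GKA (n = 28), with a log2 fold change of 0.12 and a 95% interval of -0.09 to 0.32. G6pc1, the catalytic subunit of glucose 6-phosphatase, had 264 ± 144 CPM and 315 ± 187 CPM, with a log2 fold change of 0.29 (95% interval -0.04 to 0.63). Arrdc4, an arrestin-domain relative of Txnip, had a log2 fold change of 0.19 (SE 0.10).

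The ChREBP list, which shares members with the one before, had a median log2 fold change of 0.07 over 12 genes. This median was 0.009 without the PL mice. Mlxipl itself had 193 ± 55.3 CPM without GKA and 170.3 ± 26.7 CPM with GKA (log2 fold change -0.18, SE 0.09, edgeR unadjusted p 0.0516). Fgf21, a hormone secreted by the liver, had 3.07 ± 1.93 CPM and 4.37 ± 3.01 CPM (log2 fold change 0.47, SE 0.23). It was the 1 gene of this list at an unadjusted p below 0.05 (8.33%, against 5.22% of all genes). Its exons overlap those of Fut1.

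Of 19 enzymes of glycolysis and fructolysis 15 were positive (50.6% over all genes), and the median was 0.07. At an unadjusted p below 0.05 there was 1 of the 19 (5.26%, against 5.22% of all genes). It was Aldoa, an aldolase, with 59.2 ± 8.72 CPM without GKA and 66.3 ± 13.8 CPM with GKA (log2 fold change 0.16, SE 0.07). The log2 fold change was 0.20 (SE 0.13) for Gpi1, which interconverts glucose 6-phosphate and fructose 6-phosphate, and 0.09 (SE 0.05) for Ldha, a lactate dehydrogenase. Pfkl, liver phosphofructokinase, was at 22.9 CPM in both arms. The lists of gluconeogenesis (10 genes) and glycogen metabolism (14 genes) had medians of -0.01 each. The first was 0.005 with the clock component as a covariate, and the second 0.05 without the LL mice. Foxo1, a transcription factor restrained by insulin, had a log2 fold change of -0.17 (SE 0.08). Gys2, liver glycogen synthase, had 156 ± 48.3 CPM without GKA and 153 ± 30.7 CPM with GKA. In the pentose phosphate pathway, G6pdx, the first enzyme, had 3.25 ± 1.22 CPM and 4.52 ± 3.37 CPM (log2 fold change 0.45, SE 0.16, edgeR unadjusted p 0.00759). The median of the 8 genes of that pathway was 0.04, with a sign that changed without the PP mice.

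Lipid synthesis genes had the highest medians among the metabolic lists. In lipogenesis 12 of 15 genes had a positive log2 fold change (50.6% over all genes) and the median was 0.24. At an unadjusted p below 0.05 there were 3 of 15, against 5.22% of all genes, and 0 passed the adjusted test. For Fads2 and Fads1, the desaturases of polyunsaturated fatty acids, the log2 fold change was 0.30 and 0.20, each with an SE of 0.08. Acly, which makes cytosolic acetyl-CoA from citrate, had 463 ± 310 CPM without GKA and 619.6 ± 421 CPM with GKA, a log2 fold change of 0.38 with an SE of 0.20. The spread between mice was large for these enzymes, and the 95% interval was within 1.3-fold for 13.3% of the list, against 77.7% of all genes. Genes of triglyceride synthesis and lipid droplets had a median of 0.03 over 22 genes, which was -0.05 without the PP mice. Among them Plin2, which coats lipid droplets, had 713 ± 145 CPM and 818 ± 226 CPM (log2 fold change 0.19, SE 0.09), and Abhd5, the co-activator of adipose triglyceride lipase, had 0.21 (SE 0.08).

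For cholesterol biosynthesis genes the median was 0.21 on the log2 scale, with 19 of 20 positive (50.6% over all genes), 6 at an unadjusted p below 0.05 (5.22% over all genes) and 0 past the adjusted test. Fdps, which makes farnesyl diphosphate, had 107 ± 41.4 CPM without GKA and 145 ± 79.5 CPM with GKA (log2 fold change 0.42, SE 0.14, edgeR unadjusted p 0.00317). Hsd17b7, a later enzyme of the pathway, had a log2 fold change of 0.27 (SE 0.09), and Hmgcs1, an early enzyme of the pathway, 0.22 (SE 0.14). The median was -0.01 within PP, 0.56 within PL and 0.16 within LL, and without the PL mice the common median was 0.07. The genes of sterol regulation had a median of 0.05 over 13 genes, with 0 at an unadjusted p below 0.05. Cyp7a1, the rate-limiting enzyme of bile acid synthesis, had 7.65 ± 6.08 CPM and 9.51 ± 6.62 CPM (log2 fold change 0.33, SE 0.28), and Nr0b2, the repressor SHP, had -0.33 (SE 0.15).

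**Figure D2:**
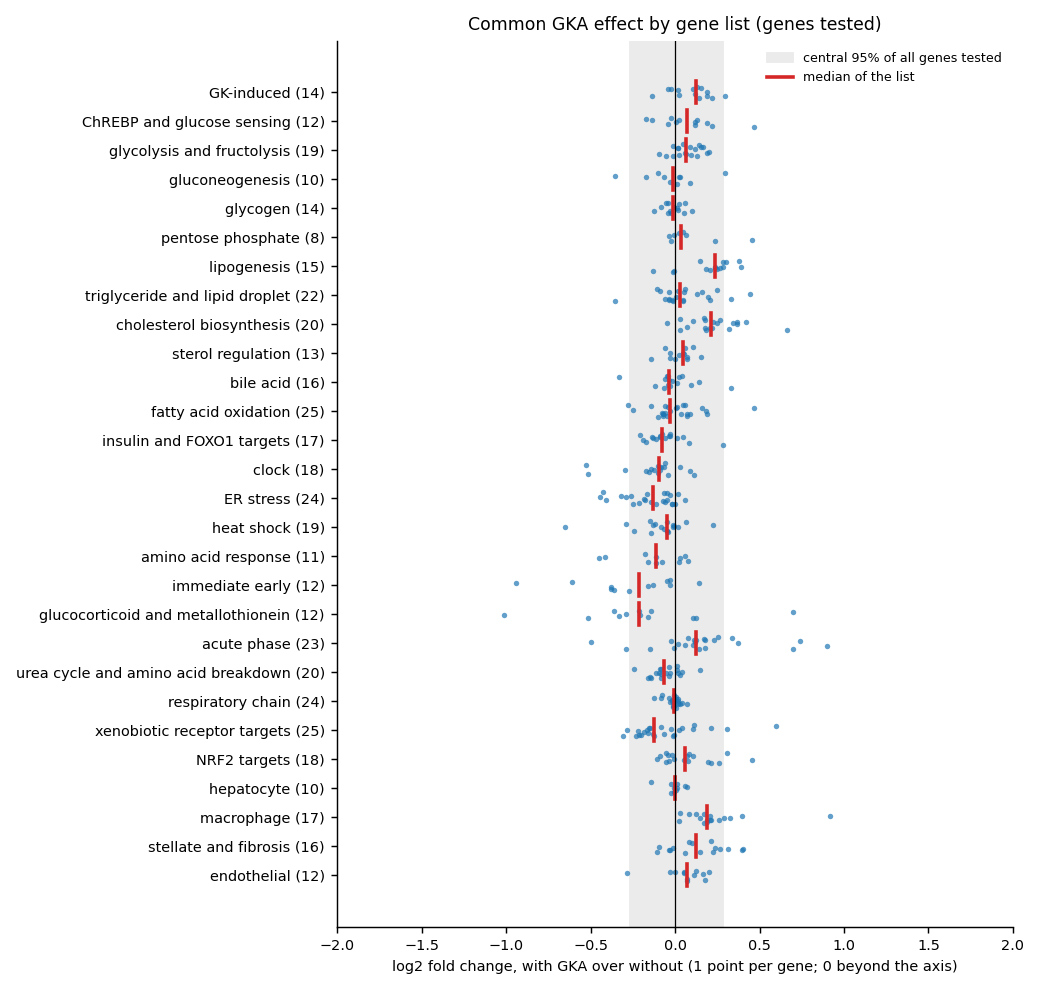
Log2 fold change with GKA over without (x axis) of each gene tested (points) in 28 lists (y axis, number tested in parentheses), with the median of each list as a red bar and the central 95% of all 11174 genes in grey. Most points lie in the grey band. The medians run from -0.22 for immediate early genes to 0.24 for lipogenesis.

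Genes of stress and acute responses mostly had negative values. Of 24 genes of endoplasmic reticulum (ER) stress, 21 had a negative log2 fold change, 5 had an unadjusted p below 0.05 and 0 passed the adjusted test, with a median of -0.13. Over all genes 50.6% were positive and 5.22% had an unadjusted p below 0.05. The ER stress median was -0.05 without the PL mice. Hspa5, the main ER chaperone, had 751 ± 307 CPM without GKA and 669 ± 298 CPM with GKA (log2 fold change -0.18, SE 0.13), and Hsp90b1, another ER chaperone, had -0.07 (SE 0.09). Of 12 immediate early genes, which respond within minutes to many stimuli, 11 were negative with a median of -0.22, and 4 had an unadjusted p below 0.05. Nr4a1, a nuclear receptor of this class, had 5.16 ± 7.86 CPM without GKA and 2.73 ± 2.30 CPM with GKA (log2 fold change -0.94, SE 0.38). Junb, a component of AP-1, had -0.38 (SE 0.16), and Jun, another component, 0.14 (SE 0.20). Of 19 cytosolic heat-shock genes 16 were negative, with a median of -0.05, and 4 had an unadjusted p below 0.05. Hspa1b, an inducible HSP70, had a log2 fold change of -0.65 (SE 0.23), and Bag3, its co-chaperone, -0.24 (SE 0.10).

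The 12 glucocorticoid-responsive and metallothionein genes had a median of -0.21, which was 0.015 without the PP mice. Of the 12, 9 were negative. At an unadjusted p below 0.05 there were 3 lower and 1 higher (5.22% of all genes), and 0 passed the adjusted test. Zbtb16, a transcription factor induced by glucocorticoids, had 8.14 ± 7.67 CPM without GKA and 4.20 ± 3.89 CPM with GKA (log2 fold change -1.01, SE 0.30, edgeR unadjusted p 0.00147). Per1, which belongs to this list and to the clock, had 7.09 ± 3.63 CPM and 4.95 ± 2.90 CPM, a log2 fold change of -0.52 with an SE of 0.22. The 18 clock genes had a median of -0.10, with 3 positive and 2 at an unadjusted p below 0.05 (50.6% and 5.22% over all genes). Their median was -0.05 within PP, -0.04 within PL and -0.25 within LL, and the common median was -0.025 without the LL mice. The clock component, a score of 16 clock genes, was 0.151 ± 0.894 without GKA and -0.146 ± 1.09 with GKA (permutation p 0.236, adjusted over 17 measures 0.684). With this component as a covariate the number of genes past the adjusted threshold was again 0, with 678 at an unadjusted p below 0.05. The part of the clock in the lists above was not tested further.

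Acute phase genes, secreted by hepatocytes in inflammation, had a median of 0.12, with 18 of 23 positive and 5 at an unadjusted p below 0.05 (50.6% and 5.22% over all genes). It was 0.07 by limma-voom with quality weights. Within PP the median of the list was -0.05, within PL 0.23 and within LL 0.16. The serum amyloid A genes Saa1 and Saa2 were at 0.74 (SE 0.34) and 0.90 (SE 0.38) on the log2 scale. Their spread was wide, at 109 ± 92.2 CPM without GKA and 197 ± 271 CPM with GKA for Saa1. The log2 fold change of Saa1 was -0.14 for PP mice, 2.22 for PL mice and 0.46 for LL mice. Hpx, which binds haem in plasma, had 3490 ± 642 CPM and 4097 ± 1213 CPM, with a log2 fold change of 0.23 (SE 0.09) and similar values in each genotype.

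The other hepatocyte lists had medians between -0.12 and 0.06. They were -0.03 for fatty acid oxidation (25 genes), -0.08 for insulin and FOXO1 targets (17), -0.11 for the amino acid response (11), -0.07 for the urea cycle and amino acid breakdown (20), -0.01 for the respiratory chain (24), -0.12 for targets of xenobiotic receptors (25) and 0.06 for NRF2 targets (18). Pericentral genes had 0.02 and periportal genes -0.07, over 14 genes each, and bile acid (16), hepatokine (19) and male-biased genes (18) each had -0.03. The 6 female-biased and 8 cell cycle genes tested had medians of 0.14 and 0.12. The signs of the fatty acid oxidation, respiratory chain, NRF2, pericentral, periportal, male-biased, female-biased and cell cycle medians changed when 1 genotype was left out. For female-biased genes the medians were 0.38 in PP, 1.14 in PL and -0.69 in LL, and for cell cycle genes 0.53, -0.22 and -0.12. The hepatokine median was 0.05 by limma-voom with quality weights, and the bile acid median came to 0 with the transcript length offset. In each of these lists 0 genes passed the adjusted test. For the 24 respiratory chain subunits every 95% interval was within a 1.3-fold change. Cebpb, a transcription factor counted with the amino acid response, had the lowest value there, with 12.7 ± 6.14 CPM without GKA and 9.50 ± 3.63 CPM with GKA (log2 fold change -0.45, SE 0.14). Gpt, an alanine aminotransferase, had -0.24 (SE 0.08).

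The genes with the smallest p in each direction are given next, none of which passed the adjusted test. Herpud1 (chromosome 8, 95113022 to 95123141), which takes part in the degradation of ER proteins, ranged from 146 to 672 CPM without GKA (median 246) and from 112 to 329 CPM with GKA (median 215). On the log2 scale the fold change was -0.44 (SE 0.10, edgeR adjusted p 0.291), with 23 of 28 mice with GKA below the mean log2 CPM of their own genotype without it. The highest Herpud1 values were those of PP mice without GKA. Ddit3 (chromosome 10, 127124268 to 127132163), the ER stress factor CHOP, ranged from 2.08 to 10.5 CPM (median 4.15) and from 1.88 to 6.72 CPM (median 3.63). Its log2 fold change was -0.43 (SE 0.12, edgeR adjusted p 0.640). The annotation holds another entry named Ddit3 that overlaps it, so the split of its reads is uncertain.

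Mafg (chromosome 11, 120515942 to 120524530), a small partner of bZIP transcription factors, ranged from 40.5 to 68.5 CPM without GKA (median 49.7) and from 26.5 to 57.8 CPM with GKA (median 44.6). Its log2 fold change was -0.24 (SE 0.06, edgeR adjusted p 0.352), and 25 of 28 mice were below the mean log2 CPM of their own genotype. Zfp36 (chromosome 7, 28076209 to 28079710), which promotes the decay of AU-rich mRNA, ranged from 21.9 to 79.1 CPM (median 45.6) and from 19.4 to 59.6 CPM (median 34.6). Its log2 fold change was -0.38 (SE 0.09, edgeR adjusted p 0.433), with 24 of 28 mice below. Camsap3 (chromosome 8, 3637293 to 3659077), which binds the minus ends of microtubules, ranged from 5.33 to 9.87 CPM (median 8.12) and from 5.37 to 8.32 CPM (median 6.68), with a log2 fold change of -0.22 (SE 0.06, edgeR adjusted p 0.640).

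Dhx58 (chromosome 11, 100585710 to 100595097), a sensor of viral RNA, had the smallest p among genes higher with GKA. It ranged from 5.06 to 11.8 CPM without GKA (median 7.82) and from 5.91 to 15.4 CPM with GKA (median 9.65). Its log2 fold change was 0.33 (SE 0.08, edgeR adjusted p 0.494), with 24 of 28 mice above the mean log2 CPM of their own genotype. Usp18 (chromosome 6, 121222848 to 121247877), which removes ISG15 from proteins, ranged from 3.78 to 9.35 CPM (median 5.31) and from 3.14 to 15.8 CPM (median 6.51), with a log2 fold change of 0.35 (SE 0.10). Both genes are known to be induced by interferon. Fads2 (chromosome 19, 10038130 to 10079203) ranged from 529 to 1154 CPM (median 820.3) and from 582 to 1420 CPM (median 1045), with a log2 fold change of 0.30 and 23 of 28 mice above. Arsg (chromosome 11, 109363104 to 109464232), a lysosomal sulfatase, ranged from 13.1 to 37.7 CPM (median 23.3) and from 15.4 to 47.8 CPM (median 28.1), with a log2 fold change of 0.31 (SE 0.09). For Fads2, Usp18 and Arsg the edgeR adjusted p was 0.640. In every one of these genes the mice with and without GKA overlapped. Some exons of Pklr, Mlxipl, Aldoa, Ldha, Pfkl, Foxo1, G6pdx, Fads1, Acly, Abhd5, Hmgcs1, Hspa5, Hsp90b1, Jun, Junb, Nr4a1, Bag3, Gpt, Txnip, Cela1, Zfp36, Per1, Cebpb, Fabp5, Dhx58, Usp18, Arsg, Herpud1, Mafg, Camsap3 and Mmp12 overlap those of other genes, and their reads cannot be fully told apart because the strand of counting is not given.

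Fabp5 (chromosome 3, 10077602 to 10081674), a fatty acid binding protein, had the largest fold change of the named genes. It ranged from 1.48 to 13.9 CPM without GKA (median 3.24) and from 2.04 to 222 CPM with GKA (median 6.42). The highest value was that of PL mouse 32 with GKA, and the next was 45.4 CPM in the same group. Its log2 fold change was 1.397 (SE 0.37, edgeR adjusted p 0.640), and without mouse 32 it was 0.87. The group medians without and with GKA were 3.81 and 4.98 CPM for PP, 3.18 and 8.37 CPM for PL, and 2.85 and 6.55 CPM for LL.

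**Figure D3:**
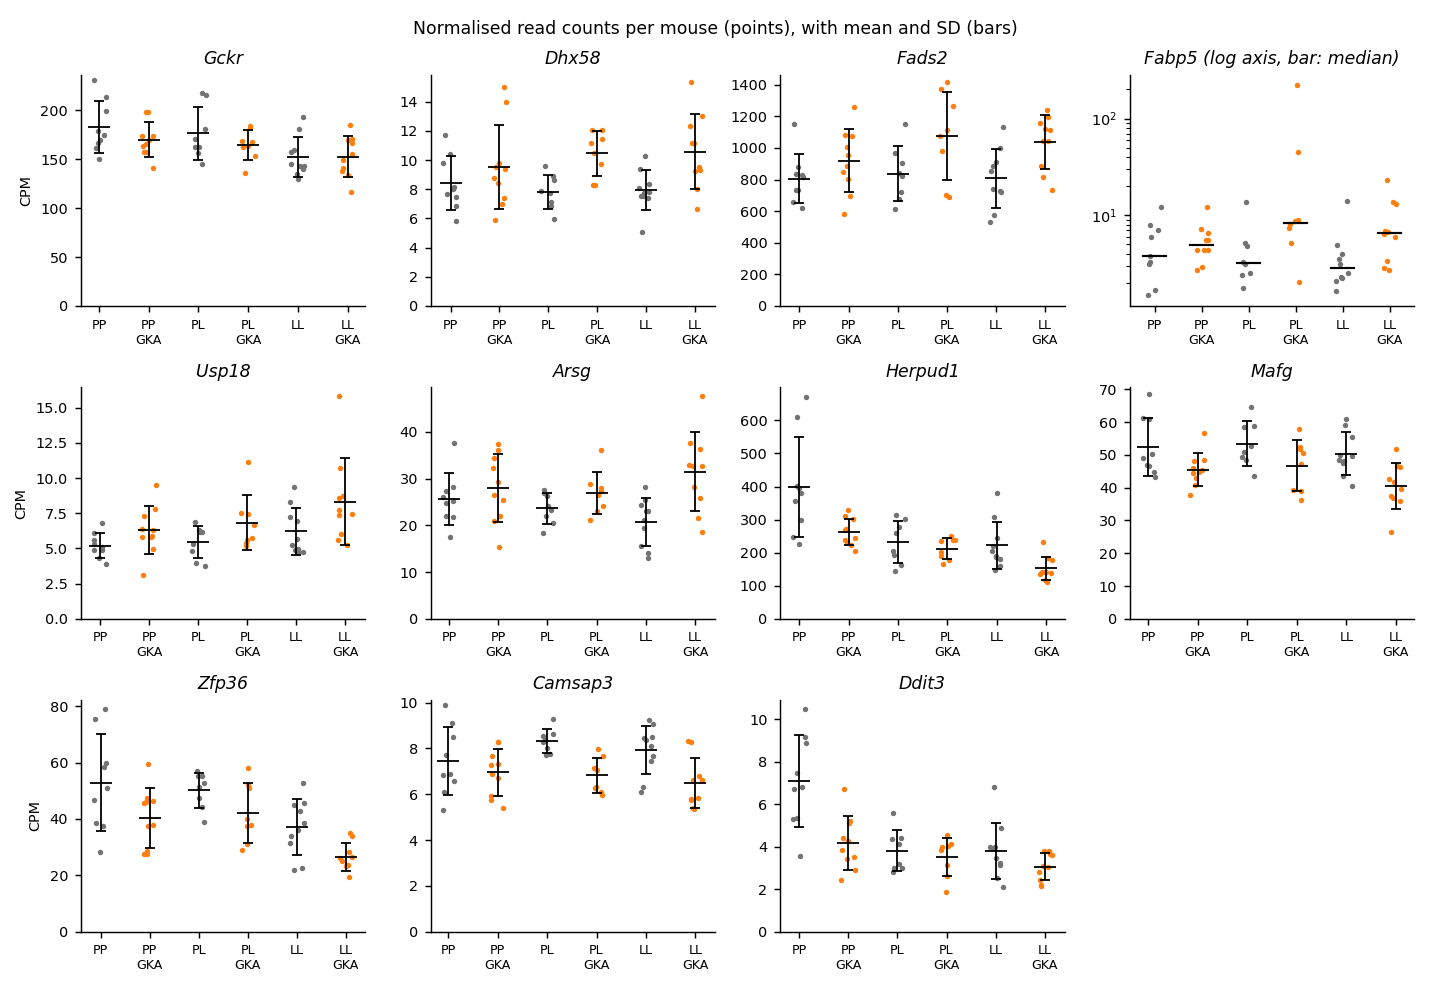
Normalised read counts (y axis, CPM) of 11 named genes in each mouse (points) by genotype without (grey) and with GKA (orange), with the mean and SD as bars. Fabp5 is on a log axis with the median as its bar. The arms overlap in every panel, and 1 PL mouse with GKA reaches 222 CPM of Fabp5.

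Gm4316 (chromosome 8, 123891994 to 123905506, plus strand), which has no established symbol and lies outside the rule for named genes, is described because it had the smallest p; it was chosen after its values were seen. It ranged from 21.8 to 96.0 CPM without GKA (median 39.0) and from 15.0 to 53.7 CPM with GKA (median 25.7). Its log2 fold change was -0.70 (SE 0.15, edgeR adjusted p 0.201), and 26 of 28 mice with GKA were below the mean log2 CPM of their own genotype without it. By genotype this was -0.74 for PP mice, -0.66 for PL mice and -0.68 for LL mice. It passed the threshold with DESeq2 (adjusted p 0.0229) and, by edgeR, when PP mouse 20 with GKA was left out (adjusted p 0.0458).

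Whether a single GKA effect describes the 3 genotypes was tested with an interaction. Of 11174 genes, 0 had an adjusted p below 0.05 for the GKA by genotype interaction (0.0%), by edgeR and by the likelihood ratio test of DESeq2, with a smallest adjusted p of 0.685 and 0.629. At an unadjusted p below 0.05 there were 473 genes by edgeR and 448 by DESeq2, where 559 are expected by chance. Of the 583 genes with an unadjusted p below 0.05 for the common effect, 483 had the same sign in PP, PL and LL. These genes were chosen by a p that came from the mice of all 3 genotypes, which favours a shared sign. The count is therefore no separate support for a common effect. Among the genes with the smallest p of the common effect, Fabp5 had values of 0.12, 3.09 and 1.11 for PP, PL and LL (edgeR unadjusted p 0.00326, adjusted 0.783). For Ddit3 the values were -0.77, -0.12 and -0.31 (unadjusted p 0.0585) and for Arsg 0.13, 0.19 and 0.60 (unadjusted p 0.0574), each with an adjusted p of 1.00. G6pc1 had 0.08 in PP, 0.63 in PL and 0.23 in LL.

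**Figure D4:**
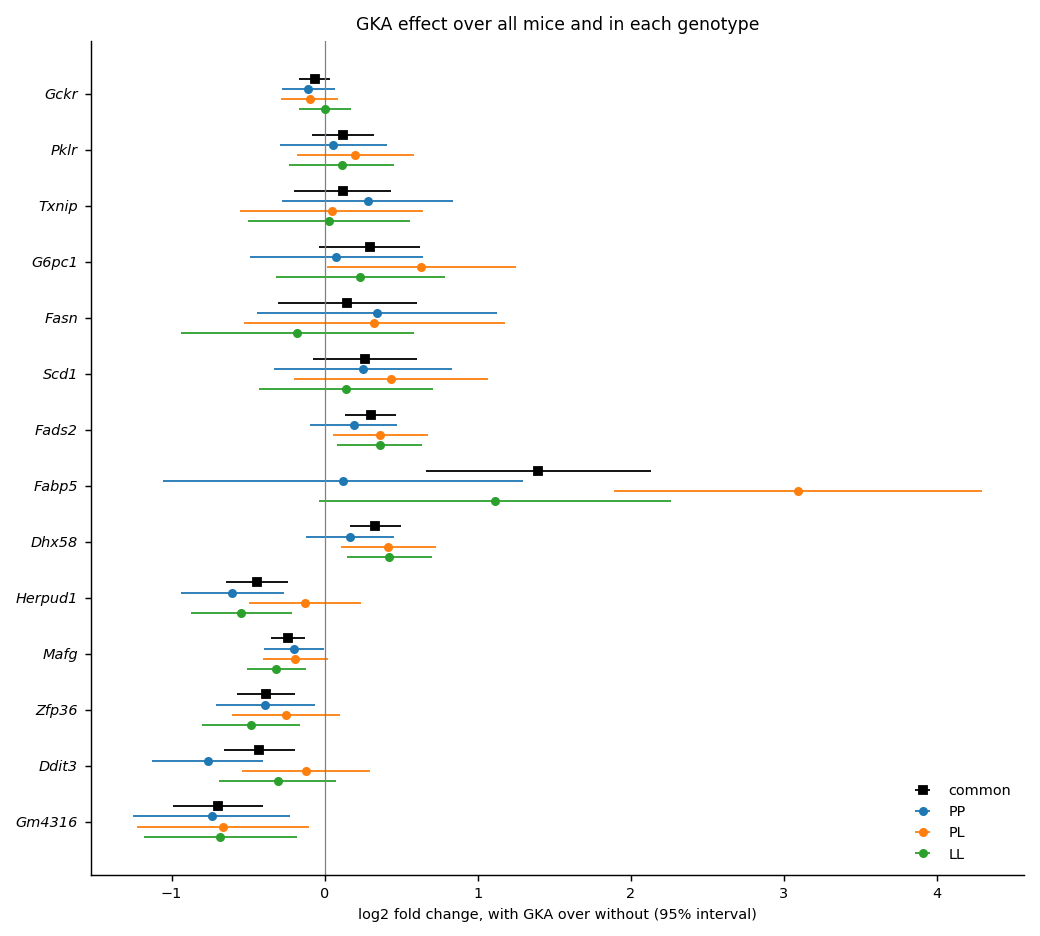
Log2 fold change with GKA over without (x axis) with its 95% interval for 14 genes (y axis), over all 55 mice (black squares) and in PP, PL and LL (coloured points). Intervals within a genotype are wider than the common one, and those of the 3 genotypes overlap for most genes. Fabp5 in PL stands apart at 3.09. Txnip, Fasn and Scd1 were added to the rule for named genes as familiar genes of glucose and lipid metabolism.

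Markers of other cells were compared because liver pieces hold blood and non-parenchymal cells. In whole liver, more cells of a type and more RNA per cell cannot be told apart. Of the macrophage markers 17 of 17 tested were positive, with a median of 0.19, 3 at an unadjusted p below 0.05 and 0 past the adjusted test, where 50.6% of all genes were positive and 5.22% had an unadjusted p below 0.05. The median was 0.11 without PL mouse 29 with GKA. The summed level of the 22 markers was 384 ± 108 CPM without GKA and 444 ± 158 CPM with GKA (permutation p 0.119, adjusted over 17 measures 0.684). Mmp12, a macrophage elastase, had 1.60 ± 1.73 CPM and 3.09 ± 3.50 CPM, with a log2 fold change of 0.92 (SE 0.41), and Cd68 had 0.33 (SE 0.15). The Kupffer cell lectin Clec4f had 63.7 ± 16.0 CPM and 70.9 ± 19.9 CPM. The highest macrophage sum, 1039 CPM, was that of PL mouse 29 with GKA. PP mouse 7 without GKA, which was not used, had 785 CPM. With that mouse kept, the sum without GKA was 398 ± 131 CPM (n = 28, permutation p 0.26).

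Stellate and fibrosis genes had a median of 0.12, with 11 of 16 positive, and endothelial genes 0.07, with 10 of 12 positive (50.6% over all genes). In each of these lists 0 genes had an unadjusted p below 0.05 (5.22% over all genes). The stellate and fibrosis median was 0.18 within PP, -0.07 within PL and 0.21 within LL. Without LL mouse 48 with GKA the common medians of stellate and endothelial genes were 0.05 and 0.03. Without the LL mice that of endothelial genes was 0.02. With PP mouse 7 kept the stellate and fibrosis median was 0.08. The 5 blood genes tested had a median of 0.11, which was -0.03 with DESeq2 and -0.07 without LL mouse 53 with GKA. For the 3 bile duct genes the median was -0.04, and 0.09 without the PP mice. For the 2 adipose genes it was 0.34, but 0.10 by limma-voom with quality weights and 0.18 without LL mouse 48 with GKA. Cela1, the 1 pancreas gene tested, had a log2 fold change of -0.24 (SE 0.20). The B cell sum was 18.7 ± 6.55 CPM without GKA and 25.5 ± 16.7 CPM with GKA (permutation p 0.0356, adjusted over 17 measures 0.605), and the difference was 0.107 CPM for PP mice, 21.4 CPM for PL mice and 1.67 CPM for LL mice. Only 3 of its 7 markers had enough reads to be tested, with a median log2 fold change of 0.255 and a lowest value of 0.235. Ighm, the immunoglobulin M heavy chain, had the highest, at 0.57 (SE 0.23). The blood sum was 552 ± 247 CPM and 593 ± 494 CPM (permutation p 0.756). In the lists of T and NK cells, neutrophils and muscle 0 genes had enough reads to be tested, and their sums were at most 7.50 CPM in mice with GKA. The part of these cells in the acute phase, interferon or Fabp5 values was not tested.

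**Figure D5:**
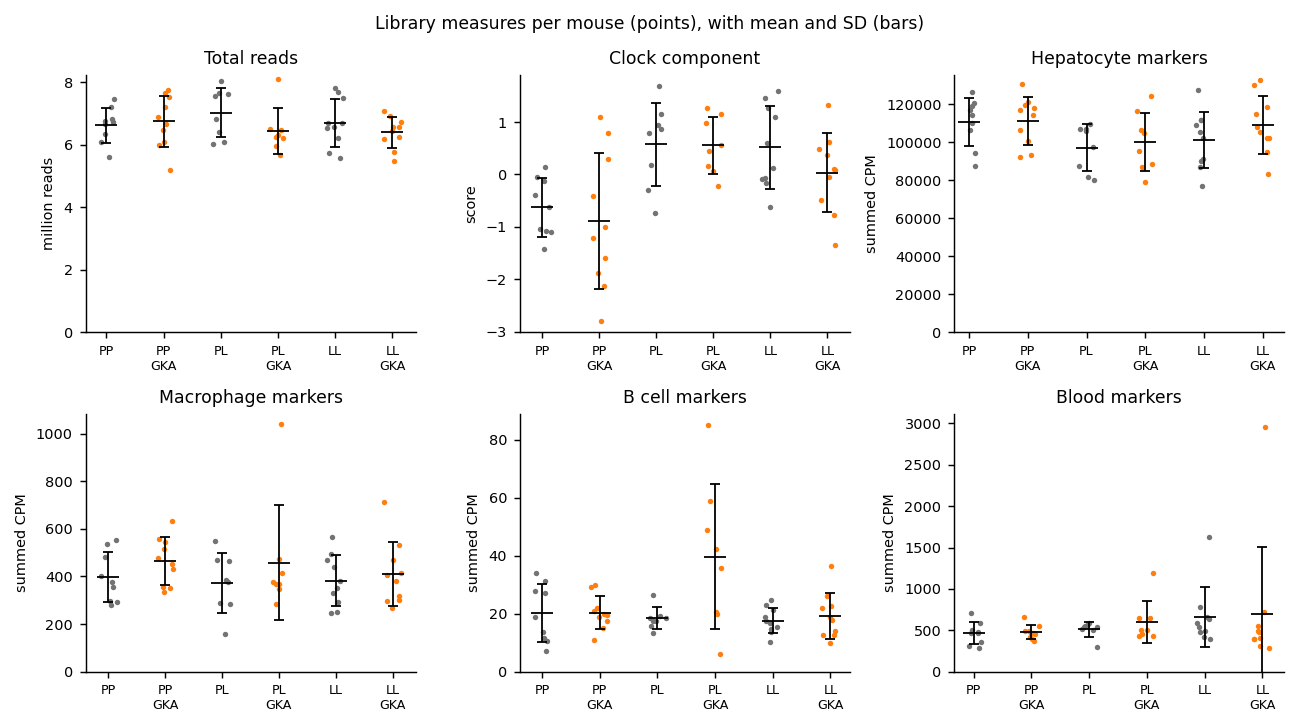
Total reads, clock component, and summed CPM of hepatocyte, macrophage, B cell and blood markers (y axes) in each mouse (points) by genotype without (grey) and with GKA (orange), with mean and SD as bars, cut at 0 for the blood markers. The arms overlap in each panel. In PL with GKA, 1 mouse reaches 1039 CPM of macrophage markers.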

How the data were processed

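RNA-seq of whole liver was analysed in 56 mice, each a separate animal. The authors sequenced samples with a RIN above 6, checked reads with FastQC without trimming, and quantified them with Salmon 1.4.0 against mouse transcripts of GENCODE M26 (GRCm39). The deposited estimated counts, 1 file per mouse with 139225 transcripts, are not normalised. The deposited TPM is scaled by Salmon to the length of each transcript, and was not tested. The other deposited columns are length and effective length. The strand setting is not given in the sources used here.

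Transcripts were assigned to genes by identifier in GENCODE vM39 (GRCm39). Of these 98.81% matched, with at least 99.758% of all reads in any mouse. Sums over the transcripts of each of 52230 genes were rounded to whole counts. PP mouse 7 was left out, as the authors did. Total reads were between 5189852 and 8093368 per mouse (median 6555851). Pairs of mice within a group gave a chi-square of at least 12.35 per degree of freedom, so none looked like a single library under 2 names.

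The common GKA effect was fitted in edgeR 4.0.16 (R 4.3.3; quasi-likelihood test) with genotype as a covariate, TMM and filterByExpr, and adjusted by Benjamini-Hochberg over all genes tested. SE and 95% intervals came from the same fit. The scripts were tested on simulated counts. CPM carry TMM scaling. Library measures were compared by permutation within genotype (SciPy 1.17.1). As alternatives, the analysis was repeated with DESeq2 1.42.0, which the authors used, limma-voom (limma 3.58.1), RLE factors, other filters, PP mouse 7 kept, no genotype covariate, equal weights for the genotypes, the clock component (first principal component of 16 clock genes, 61.1% of their variance) as a covariate, an offset for transcript length, and mice or genotypes left out. Leaving out mice with edgeR was chosen after seeing the data. The labels give no batch, so no comparison within batches was possible.

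Named genes were Gckr, genes past the adjusted threshold or else the 5 in each direction with the smallest p, passing over genes without an established symbol, and from each of 44 lists the first 2 tested and the 2 with the smallest p. The comparison, the lists and their genes were chosen with earlier results of these data known, and lists are described by counts and medians only. Some genes of the lists and of the rule are not reported here.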

Additional observations from a re-analysis of the deposited data

Results flagged for a closer look

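The genes were Gckr, the 5 named ones with the smallest p in each direction, and Gm4316. Pklr, G6pc1, Mlxipl, Fgf21 and Hspa5 came from the lists. Txnip, Dbp, Fasn, Scd1, Srebf1, Insig1 and Igfbp1, familiar genes of liver metabolism, lie outside the rule for named genes. No other gene with values in the text was examined for mice that stand apart. In 246 sets of values, each a gene or library measure in 1 group of mice, the highest or lowest mouse was examined. Its gap to the nearest neighbour was set against the 95% critical value of Dixon. Chance alone exceeds that value in about 1 in 20 sets of normally distributed values. CPM were not log-transformed, so that share need not hold here. The critical value was exceeded 30 times. PL mouse 29 with GKA stood apart in 4 of them, with 1039 CPM of macrophage markers (next 472), 290.4 CPM of stellate and fibrosis markers, 4.15 CPM of neutrophil markers and 11.1 CPM of Usp18. PP mouse 6 without GKA had 1154 CPM of Fads2, 71.5 CPM of Txnip and 41520 CPM of Scd1 (next 25680). Fabp5 had 1 such mouse in 4 of the 6 groups, with 12.1 CPM in PP mouse 19 with GKA, 13.7 CPM in PL mouse 28 and 13.9 CPM in LL mouse 46 without GKA, and 222 CPM in PL mouse 32 with GKA.

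Of the other genes, mice with GKA that stood apart had 51.2 CPM of Gm4316 (PP mouse 20), 563 CPM (PP mouse 19) and 525 CPM (PL mouse 30) of G6pc1, 15.8 CPM of Usp18 (LL mouse 56), 409 CPM of Srebf1 (PL mouse 36), 5629 CPM of Scd1 (LL mouse 53, the lowest), 173 CPM of Insig1 (LL mouse 51), 33.8 CPM of Igfbp1 (LL mouse 49) and 768 CPM of Hspa5 (PL mouse 33). LL mouse 44 without GKA had 277 CPM of Mlxipl.

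Of the library measures, total reads were 8.09 M in PL mouse 31 with GKA. Bile duct markers were 107 CPM in PP mouse 8 without GKA and 77.8 CPM in LL mouse 48 with GKA, in which adipose markers were 66.4 CPM. In PL mouse 25 without GKA, B cell markers were 26.6 CPM and blood markers 293 CPM, the lowest of that group. Blood markers were 1192 CPM in PL mouse 35 with GKA, 1633 CPM in LL mouse 37 without GKA and 2963 CPM in LL mouse 53 with GKA. PP mouse 7, which entered no main comparison, had 4.38 CPM of neutrophil markers. The other mice without GKA had at most 3.67 CPM and all other mice at most 4.15 CPM. Macrophage markers in PP mouse 7 were 785 CPM and its stellate and fibrosis markers 364 CPM. For these the other mice without GKA had at most 565 and 311 CPM.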

How the results depend on the processing

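No paired analysis was possible because each mouse has a number of its own, so the groups share none. The number of genes past the adjusted threshold was 0 in the main test and in every alternative except 3. DESeq2 gave 1 DEG (Gm4316). Without a filter on low counts edgeR gave 4 DEGs of 27451 genes (Itgbl1, Dmbt1, Gm29668 and Gm43444, named after their values were seen). Leaving out 1 mouse with edgeR gave between 0 and 1 DEGs, with 1 (Gm4316) without PP mouse 20 with GKA and 0 in the other 54 fits, and leaving out 1 mouse with limma-voom gave 0 in all 55. Genes at an unadjusted p below 0.05 were between 468 (without the LL mice) and 883 (transcript length offset), among 11104 to 11174 genes with a filter. With PP mouse 7 kept there were 479. The interaction gave 0 genes by edgeR and DESeq2, and with PP mouse 7 kept 0 library measures passed their adjusted threshold.

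The 11 named genes kept their direction in each of the 124 alternatives, with a smallest adjusted p of 0.0663 (Herpud1). All but Gckr were chosen by their p in these same mice, and most alternatives left out only 1 mouse. A kept direction is therefore no separate support for them. Fabp5 varied from 0.62 without the PL mice to 2.07 without the PP mice, and Gckr reached -0.39 with the transcript length offset. Among the other genes of the lists, Hlf was 0.32 with the transcript length offset, against -0.17. The median of glucocorticoid and metallothionein genes was 0.015 without the PP mice. The causes were not tested. Over the alternatives that left out no single mouse, the medians ranged from 0.09 to 0.15 for the GK-induced, 0.17 to 0.29 for lipogenesis, 0.07 to 0.34 for cholesterol biosynthesis, -0.20 to -0.05 for ER stress, -0.30 to -0.16 for immediate early, 0.07 to 0.24 for acute phase and 0.14 to 0.27 for macrophage genes. These signs were the same with edgeR when 1 mouse was left out, where the macrophage median was between 0.11 (without PL mouse 29 with GKA) and 0.22. By counts, 43.0% of the 95% intervals lay within 1.3-fold in the set of genes with the lowest counts and 90.2% in the highest.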

Other observations

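After Dhx58 and Usp18 were seen among the genes with the smallest p, 18 genes known to be induced by interferon were put together, a list chosen after values were seen that supports nothing by itself. Of these 17 could be tested, 17 had a positive log2 fold change and 6 an unadjusted p below 0.05 (50.6% and 5.22% over all genes). The median was 0.13 and 0 passed the adjusted test. Oas1a, which makes 2-5A when activated by viral RNA, had 0.43 (SE 0.14). Irf7, a regulator of interferon genes, had 0.26 (SE 0.09), and Ifih1, the RNA sensor MDA5, 0.16 (SE 0.05). Rigi and Bst2, of the same kind, had 0.03 (SE 0.06) and 0.07 (SE 0.07). The median was 0.08 for PP, 0.10 for PL and 0.31 for LL mice.

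Of sex-biased and cell cycle genes, Cyp17a1, a steroid hydroxylase, had 15.6 ± 7.08 CPM without GKA (SD, n = 27) and 25.3 ± 17.6 CPM with GKA (n = 28), with log2 fold changes of 0.13, 1.28 and 0.59 for PP, PL and LL. Cyp2b9, a P450 higher in females, had 0.36 in PP, 1.00 in PL and -1.08 in LL, and its common value was 0.02 (SE 0.37). Ccnd1, the cyclin of the passage from G1 to S phase, had 20.4 ± 9.93 CPM and 28.2 ± 14.3 CPM (log2 fold change 0.48, SE 0.19), while Mki67, a marker of dividing cells, had 2.26 ± 1.62 CPM and 2.52 ± 2.42 CPM. Inhba, the subunit of activin A, had 3.00 ± 1.39 CPM and 4.43 ± 3.86 CPM (log2 fold change 0.54, SE 0.22). None of these genes passed the adjusted test. Some exons of Cyp17a1, Ccnd1, Inhba and Irf7 overlap those of other genes.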
